A study of Mus musculus with 24 samples.

Results

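C127 was derived from a mouse mammary tumour, and the study describes it as an epithelial line. Its H3K4me3, a histone mark that surrounds the starts of transcribed genes, was profiled by ChIP-seq. The genes described here were the ErbB receptors (Egfr, Erbb2, Erbb3 and Erbb4) and 6 ligands of the EGF family (Egf, Tgfa, Areg, Hbegf, Ereg and Btc). They were chosen by name, with earlier results of these data known. They made up 10 of the 21755 protein-coding genes on the 20 chromosomes used. The series held 24 samples in 12 groups, and the values below come from the H3K4me3 group, 3 replicates of the line grown in serum-containing medium, for which the labels name no transgene and no treatment. The other 21 samples, which included the H3K4me3 input, were not analysed here.

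The 3 replicates were joined by the authors into a single list of 13451 peaks that gives positions only. Widths and distances below therefore have no spread between replicates, no test of a difference could be made, and the read depth behind the peaks is unknown. A gene was counted as having a peak when a peak came within 250 bp of any of its start sites in the GENCODE vM21 basic annotation, and its width was that of the widest such peak. By this rule 49.4% of all protein-coding genes had a peak. Of 14 genes used as markers of mammary epithelium, 2 had a peak in the list (Gata3, 15554 bp, and Esr1, 2320 bp). Among the others, none was found at Cdh1, Cldn3, Cldn4, Cldn7, Elf5 or Epcam. A peak was found at 10 of 12 mesenchymal genes, with the widest peaks at Fn1 (7629 bp), Twist2 (7374 bp), Snai1 (7302 bp) and Vim (7153 bp), and with none at Col1a1 and Col3a1. None of 12 markers of other cell types had a peak, among them Alb, Apoa1, Cd3e, Cd79a, Cdh5 and Ddx4. A CpG island lay within 250 bp of a start at 12 of the 14 epithelial and 10 of the 12 mesenchymal genes. Of the 12 markers of other cell types, only 3 had one. Over all genes, a peak was found at 70.2% of those with an island and 5.02% of those without. The list of other cell types is therefore not directly comparable with the other lists. Among markers with an island, a peak was found at 2 of 12 epithelial, 9 of 10 mesenchymal and 0 of 3 others. These lists were not tested against one another.

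As background, ErbB receptors are tyrosine kinases of the cell surface that pair with one another when a ligand binds. Erbb2 has no known ligand of its own and serves as a partner, and the kinase of Erbb3 is weak, so that it signals through its partners. The ligands are made as membrane-anchored precursors and are released by proteases. In the mammary gland, amphiregulin (Areg) acting on Egfr drives the growth of the ducts, and Erbb4 takes part in lactation.

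A peak was found at 8 of the 10 genes, at 3 of 4 receptors and 5 of 6 ligands. Over all protein-coding genes the share was 49.4%, and over those with a CpG island, as 9 of the 10 had, it was 70.2%. The receptors with a peak were Egfr, Erbb2 and Erbb3, and the ligands were Egf, Areg, Hbegf, Ereg and Btc. Erbb4 and Tgfa had none. Each of the 8 peaks contained a start site of its gene. The next peak outward lay 108207 bp from the start of Tgfa, so no gene was near the limit of 250 bp. Widths ran from 976 bp at Egfr to 5892 bp at Ereg, with a median of 2480.5 bp (receptors 2069 bp, ligands 2609 bp). Over all 10747 genes with a peak the median was 3254 bp (quartiles 2410 and 4258 bp), a value that 5 of the 8 peaks did not reach. Below, shares of genes with a narrower peak or a shorter reach are over the genes with a peak.

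CpG content differed widely among these promoters. The 7 stretches of sequence are shown because a peak was missing from promoters with a CpG island and present at a promoter without. The stretches are promoters from RefSeq on GRCm38.p6, each from 250 bases before to 50 bases after a start, written along the gene's strand with every CG dinucleotide in capitals. The Egf gene appears with both of its starts, the upstream one (chr3:129755273-129755572, minus strand, no peak) and the internal one (chr3:129725037-129725336, minus strand, peak). Tgfa (chr6:86194972-86195271, plus strand) and Erbb4 (chr1:69108010-69108309, minus strand) are the promoters that have a CpG island at the start and no peak. Btc (chr5:91402945-91403244, minus strand) has a peak and no CpG island within 250 bp of its start. Egfr (chr11:16751953-16752252, plus strand) has the narrowest peak, and Areg (chr5:91139349-91139648, plus strand) was the promoter that held a TATA box.
Egf, upstream start: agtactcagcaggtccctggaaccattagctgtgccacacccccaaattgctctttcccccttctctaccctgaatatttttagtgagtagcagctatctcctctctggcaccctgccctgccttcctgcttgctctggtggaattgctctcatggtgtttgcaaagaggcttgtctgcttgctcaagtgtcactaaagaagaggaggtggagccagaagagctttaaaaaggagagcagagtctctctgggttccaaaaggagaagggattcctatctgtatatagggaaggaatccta
Egf, internal start: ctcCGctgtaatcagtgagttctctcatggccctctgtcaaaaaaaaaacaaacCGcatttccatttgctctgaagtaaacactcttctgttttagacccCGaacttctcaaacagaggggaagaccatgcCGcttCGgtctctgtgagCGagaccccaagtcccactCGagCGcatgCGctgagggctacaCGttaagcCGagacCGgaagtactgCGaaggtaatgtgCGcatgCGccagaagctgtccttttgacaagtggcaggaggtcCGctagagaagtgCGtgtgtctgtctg
Tgfa: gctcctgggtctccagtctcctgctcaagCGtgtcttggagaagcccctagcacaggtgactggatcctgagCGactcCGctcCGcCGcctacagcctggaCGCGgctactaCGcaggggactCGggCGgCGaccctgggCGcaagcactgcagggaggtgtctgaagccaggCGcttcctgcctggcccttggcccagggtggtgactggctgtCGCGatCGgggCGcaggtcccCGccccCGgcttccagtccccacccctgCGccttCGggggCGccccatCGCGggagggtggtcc
Erbb4: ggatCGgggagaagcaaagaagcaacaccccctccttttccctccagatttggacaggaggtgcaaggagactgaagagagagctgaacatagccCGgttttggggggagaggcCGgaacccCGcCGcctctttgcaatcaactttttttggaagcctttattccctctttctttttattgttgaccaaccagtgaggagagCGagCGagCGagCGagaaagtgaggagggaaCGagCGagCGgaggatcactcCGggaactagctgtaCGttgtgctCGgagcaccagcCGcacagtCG
Btc: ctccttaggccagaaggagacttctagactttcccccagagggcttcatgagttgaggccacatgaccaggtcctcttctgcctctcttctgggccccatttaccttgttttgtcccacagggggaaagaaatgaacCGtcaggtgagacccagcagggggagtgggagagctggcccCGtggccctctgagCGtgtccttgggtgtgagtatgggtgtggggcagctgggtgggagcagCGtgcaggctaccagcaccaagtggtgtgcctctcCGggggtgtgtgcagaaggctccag
Egfr: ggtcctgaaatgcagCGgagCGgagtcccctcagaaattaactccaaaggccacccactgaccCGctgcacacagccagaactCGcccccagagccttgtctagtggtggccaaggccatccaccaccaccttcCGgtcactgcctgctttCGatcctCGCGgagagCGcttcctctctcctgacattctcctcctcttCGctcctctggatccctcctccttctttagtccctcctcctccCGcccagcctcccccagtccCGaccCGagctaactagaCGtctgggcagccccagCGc
Areg: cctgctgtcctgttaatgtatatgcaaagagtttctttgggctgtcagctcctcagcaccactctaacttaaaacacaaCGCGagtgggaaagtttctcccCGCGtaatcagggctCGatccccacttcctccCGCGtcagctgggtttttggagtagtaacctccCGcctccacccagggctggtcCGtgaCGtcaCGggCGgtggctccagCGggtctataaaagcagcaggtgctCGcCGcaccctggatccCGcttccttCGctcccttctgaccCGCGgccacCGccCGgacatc

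Of the 10 genes, 7 were matched in the RefSeq table, with 8 starts. Erbb3, Hbegf and Ereg were not matched. The number of CG dinucleotides in 300 bases was 0 at the upstream Egf start and 17 at the internal one. It was 24 at Tgfa and 17 at Erbb4, neither of which had a peak, and 5 at Btc, which did. Erbb2 and Areg had 21 each and Egfr had 15. The median of 21262 coding promoters was 13. Motifs were searched on both strands. The GC box GGGCGG, the site of Sp1 and its relatives, was found at 3 of the 8 starts, once at Egfr (9 bases before the start) and in 2 copies each at Tgfa and Areg, against 46.2% of all promoters of this length. The TATA box TATAAA was found only at Areg, beginning 31 bases before the start, against 12.6% of all promoters. The AP-1 site TGANTCA was in none of the 8, against 6.99% of all.

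**Figure D1:**
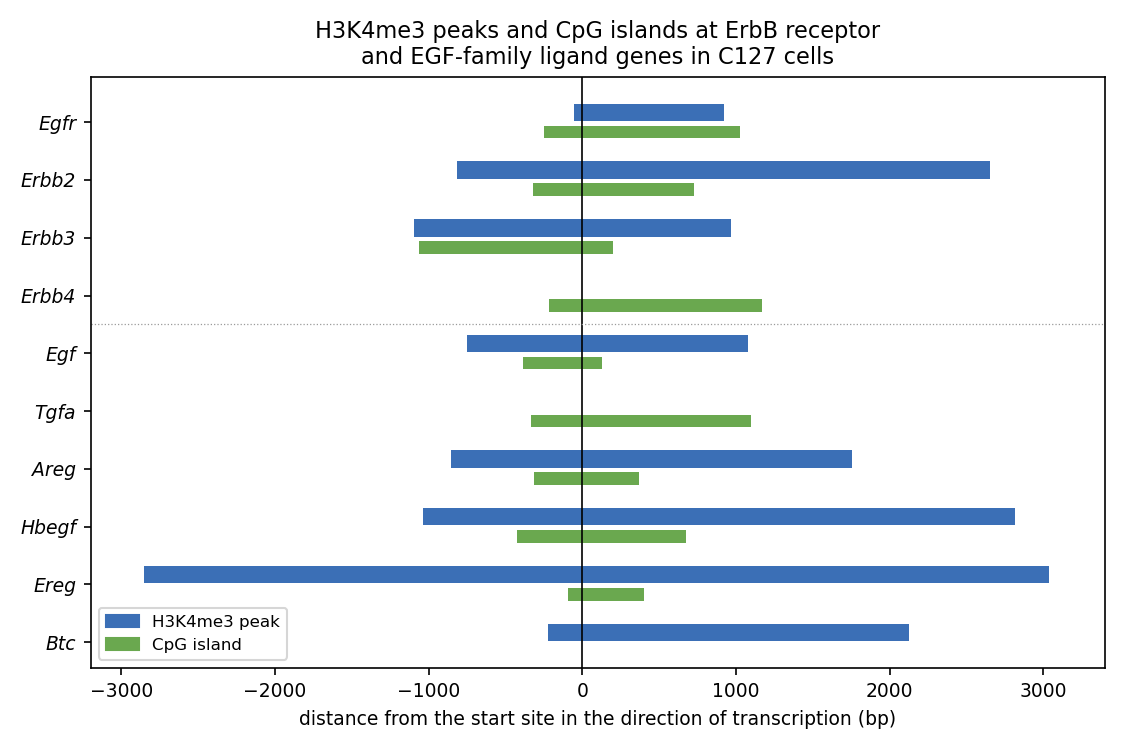
H3K4me3 peaks (blue) and CpG islands (green) at the 10 genes, aligned on the start site used (0, vertical line), with distance in bp in the direction of transcription. Peaks reached from 55 to 2854 bp upstream and from 920 to 3037 bp downstream. Erbb4 and Tgfa show an island and no peak, and Btc shows a peak and no island within 250 bp of its start.

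Among the receptors, Erbb2 had the widest peak, at 3474 bp (chr11:98411651-98415124), which was wider than 56.4% of the peaks at all genes. It reached 819 bp upstream and 2654 bp downstream of the single start and covered exon 1 and part of intron 1. The peak of Erbb3 was narrower, at 2069 bp (chr10:128588683-128590751, 16.0% of genes narrower), and reached 1099 bp upstream and 969 bp downstream. Erbb3 was the exception among the 8 in reaching further upstream than downstream, whereas 83.5% of all genes with a peak reached further downstream. Its CpG island of 1262 bp also lay mostly before the start, as the map of peaks and islands shows.

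Egfr, the receptor of Egf, Tgfa and Areg, had the narrowest peak of the 8, at 976 bp (chr11:16752148-16753123). Only 2.3% of genes with a peak had a narrower one. The peak reached 55 bp upstream and 920 bp downstream, against medians of 940 and 2138 bp over all genes. It lay wholly within the CpG island of 1275 bp and covered 76.5% of it. The peak was 0.77 times as long as the island, and 0.8% of genes had a lower ratio (median 3.1). Both annotated starts lie in it, that of the full receptor of 1210 residues (Egfr-201) and that of a product of 655 residues (Egfr-202) that stops before the kinase. A peak of this width cannot tell these starts apart.

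Erbb4 had no peak at either of its starts or anywhere in its 1075874 bp, and the nearest peak lay 578822 bp away. Of the 11008 genes without a peak, 86% lay closer to one, with a median of 86397 bp. The promoter of Erbb4 carried an island of 1388 bp with 105 CpGs, longer than 80.6% of the islands at genes. Of the 2886 genes with an island at least that long, 77.7% had a peak. Tgfa, a ligand of Egfr, was the other gene without a peak. Its island was 1434 bp long with 112 CpGs, and the 57 CpGs within 250 bp of its start exceeded those of 89.4% of genes. The nearest peak lay 88385 bp from the gene. Reads without a unique position were discarded by the authors. At both genes at least 99.6% of the 32-base words within 500 bp of a start occurred once in the chromosomes used. The word length was a setting chosen here, and whether mapping bears on the missing peaks was not tested.

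**Figure D2:**
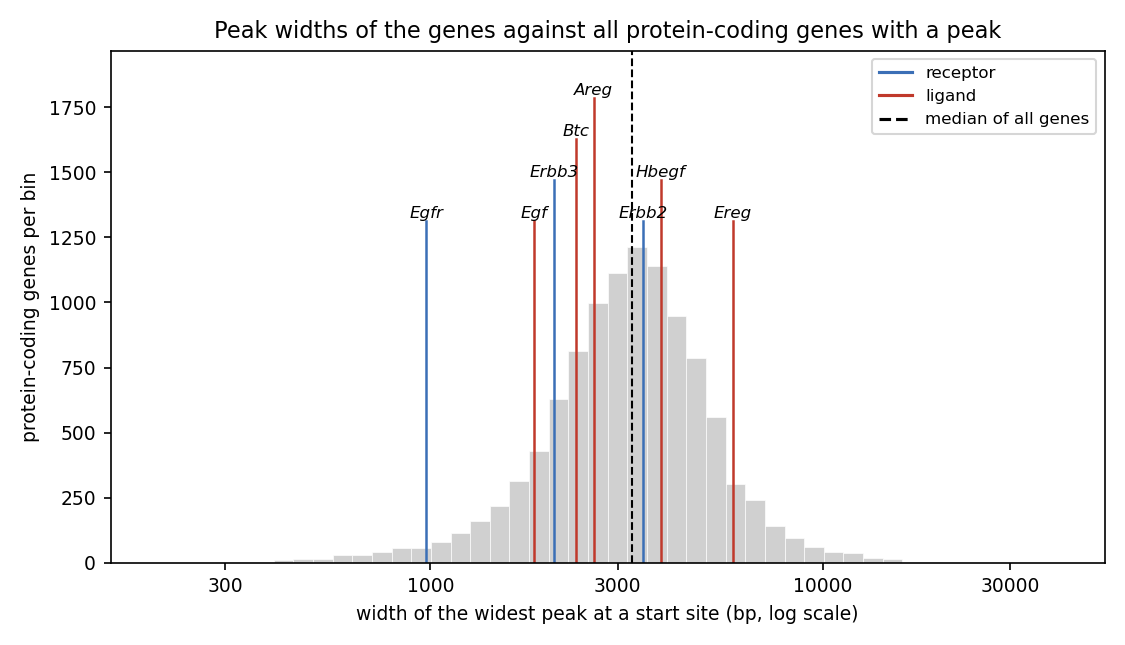
Histogram of the width of the widest peak at a start site (bp, log scale) over 10747 protein-coding genes with a peak, with lines at the widths of the 8 genes (blue receptors, red ligands) and a dashed line at the median of all genes, 3254 bp. Egfr, Egf, Erbb3, Btc and Areg lie below the median, and Erbb2, Hbegf and Ereg lie above it.

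Among the ligands, the peak of Egf was at an internal start. Egf has an upstream start at position 129755316 of chromosome 3 that gives the full precursor of 1217 residues (Egf-201), and this start had no peak, no island and 4 CpGs within 250 bp. The nearest peak was 29477 bp from it. That peak (chr3:129724006-129725839, 1834 bp, 11.6% of genes narrower) lay 30.2 kb into the gene, over starts at 129725087 (Egf-202, 716 residues) and 129725077 (Egf-209, 675 residues) in intron 6 of Egf-201. An island of 518 bp with 25 CpGs lay there, entirely under the peak. The coding sequence of Egf-202, 2148 bp, was wholly contained in the 3651 bp of Egf-201 and ended at the same stop codon, so these products share the carboxy-terminal side of the precursor, which holds the EGF peptide itself. Of 1059 genes with a peak and with starts 10 kb or more apart, 20.1% had no peak at their most upstream start.

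**Figure D3:**
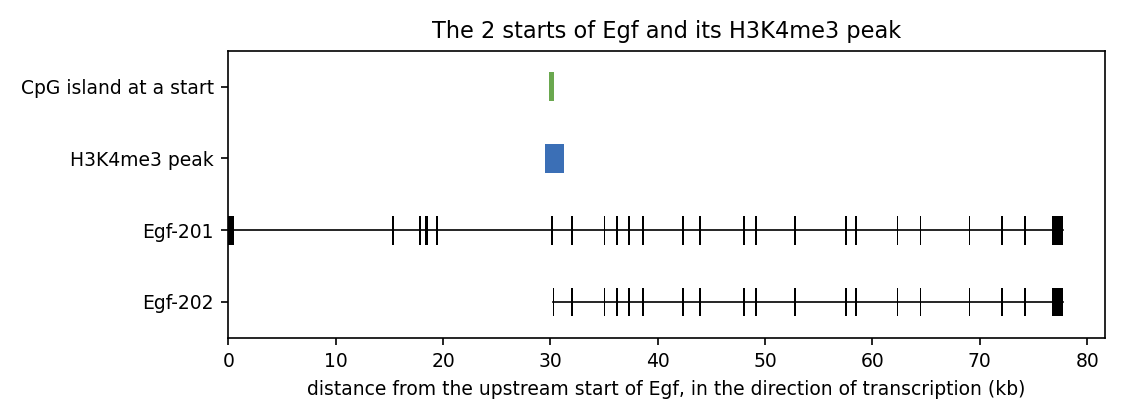
Exons of the full-length transcript Egf-201 and of Egf-202, which begins inside it, with the H3K4me3 peak and the CpG island, by distance in kb from the upstream start in the direction of transcription. The peak spans 29.48 to 31.31 kb, over the start of Egf-202, and none lies at 0.

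Areg, Ereg and Btc stand in a cluster on chromosome 5 with Epgn, which encodes epigen, another EGF-family ligand. From the start of Epgn to that of Btc the cluster spans 375.5 kb. Ereg starts 47.2 kb, Areg 112.1 kb and Btc 375.5 kb from the Epgn start. Each of these genes but Epgn had a peak. With a further one at no start site, the cluster held 4 peaks, and their 11584 bp came to 3.08% of the span.

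Ereg, which encodes epiregulin, had the widest peak of the 8 (chr5:91071768-91077659, 5892 bp), wider than that of 92.2% of genes. The peak reached 2854 bp upstream and 3037 bp downstream, and its upstream reach exceeded that of 94.2% of genes. The island below it was the shortest among the members, 494 bp with 28 CpGs, so that the peak was 11.93 times as long as the island, a ratio above that of 98.1% of genes. Ereg was the one gene of the 10 with a start on the other strand within 2 kb, that of the antisense gene Gm19610, which begins 151 bp downstream of the Ereg start and shares the peak. Over all genes, 19.4% had such an opposite start. Of the 10747 genes with a peak, 7426 had no such start. The mark of Ereg and of Gm19610 cannot be told apart in this peak.

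Areg, amphiregulin, had a peak of 2609 bp (chr5:91138743-91141351), wider than that of 30.5% of genes, which reached 856 bp upstream and 1752 bp downstream. It covered exon 1, reached exon 2 and held the whole island of 685 bp, and 19.8% of the gene's 8834 bp lay under it. Btc, betacellulin, which binds both Egfr and Erbb4, had a peak of 2352 bp (chr5:91400868-91403219). It reached 225 bp upstream and 2126 bp downstream, and only 8.0% of genes reached less far upstream. Btc was the one gene of the 10 with no island within 250 bp of its start. The same stretch held 10 CpGs, against a median of 26. A peak was found at 5.02% of the 6947 genes without such an island, or 349 genes. Among these the width of Btc was ordinary, with 47.3% narrower.

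**Figure D4:**
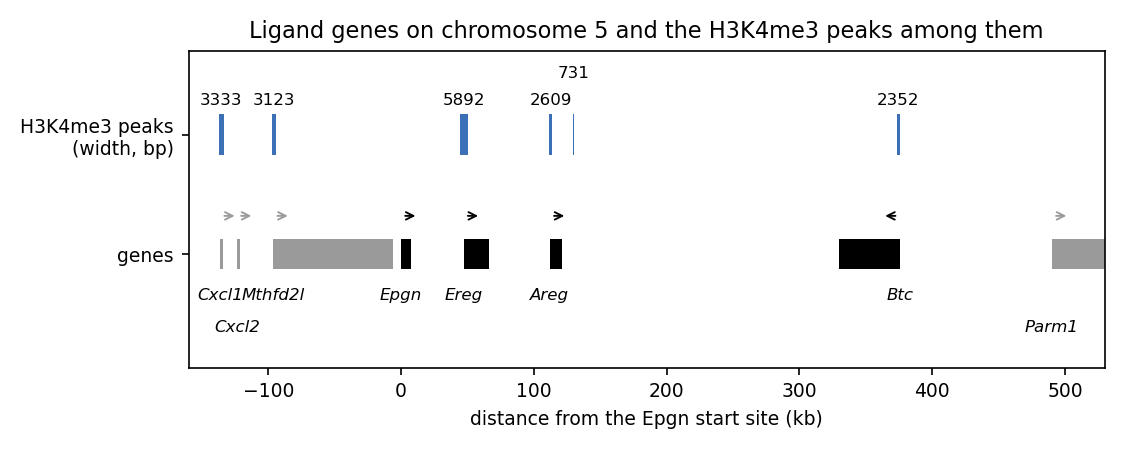
Genes (black, the 4 ligand genes; grey, neighbours) with arrows for the direction of transcription, and H3K4me3 peaks labelled with their width in bp, by distance in kb from the Epgn start on chromosome 5. Peaks of 5892, 2609 and 2352 bp stand at the starts of Ereg, Areg and Btc, none stands at Epgn, and a peak of 731 bp lies past the end of Areg.

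Hbegf, the heparin-binding ligand that also serves as the diphtheria toxin receptor in other species, had a peak of 3859 bp (chr18:36512987-36516845). It was wider than that of 66.3% of genes and reached 1040 bp upstream and 2818 bp downstream. The gene is 10879 bp long, and 25.9% of it lay under the peak, the highest share among the 8. The island of 1101 bp with 89 CpGs was covered entirely. Of the 5 ligands with a peak, Hbegf and Ereg thus lay above the median width of all genes, and Areg, Btc and Egf lay below it.

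An island within 250 bp of a start was found at 9 of the 10 genes, and 7 of these 9 had a peak. Over all genes the share was 70.2% of 14808 genes with an island. In 6 of the 7 the peak covered the whole island, as it did at the median gene, and Egfr was the exception. When genes with an island were divided by its length into 4 classes of similar size, the share with a peak was 42.8% in the class with the shortest islands (200 to 672 bp), where Egf and Ereg lay. It was 76.2% in the next class (673 to 953 bp), which held Areg, and 82.6% in the one after (954 to 1282 bp), with Egfr, Erbb2, Erbb3 and Hbegf. In the class with the longest islands (1283 to 4747 bp) 79.2% had a peak, and this was the class of Erbb4 and Tgfa. Median widths rose over the classes from 2423 to 2848, 3349 and 4048 bp. Ereg, with one of the shortest islands and a peak of 5892 bp, and Egfr, with an island of 1275 bp and a peak of 976 bp, were the genes furthest from the medians of their classes.

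Of the 5 other EGF-family ligands, 2 had a peak. Nrg1, a neuregulin that binds Erbb3 and Erbb4, had one of 6418 bp (chr8:32003972-32010389) over a group of internal starts, the most upstream of them at 32009451, with an island of 1784 bp. The peak was shared with the gene Gm26578, which has a start on the other strand within 2 kb. Its front start at 32884029 had an island of 1804 bp and no peak. The peak of Nrg4, a ligand of Erbb4, was 1312 bp wide and was shared with Tmem266 on the other strand. Nrg2 and Nrg3, which carried islands of 1521 and 2327 bp, had none. Epgn had no peak and no island near its start, and 76.6% of the 32-base words around the start were unique, the lowest share among these ligands.

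Genes that act with the receptors or their ligands were counted in 3 lists, whose members all had an island, and the share with a peak over all genes with an island was 70.2%. All 8 genes of ligand shedding had a peak, namely Rhbdf1 (11079 bp), Rhbdf2 (4693 bp), Adam9 (4262 bp), Adam10 (3703 bp), Adam17 (3389 bp), Adam15 (3096 bp), Adam19 (3003 bp) and Adam12 (2266 bp). Adam17 and Adam10 are the main proteases that release the ligands, and the rhomboid-like proteins Rhbdf1 and Rhbdf2 are needed for Adam17 to mature. Of 11 inhibitors and genes of receptor turnover, 10 had a peak, with the widest at Socs5 (8609 bp), Lrig1 (6850 bp), Rnf41 (6676 bp) and Lrig3 (4302 bp). Rnf41 is the ubiquitin ligase of Erbb3, and Cblc, of the Cbl family of ubiquitin ligases, had no peak. Among adaptors and the kinase cascade 21 of 22 genes had one, led by Shc1 (7822 bp), Pik3cb (4801 bp), Gab1 (4697 bp) and Pik3r1 (4584 bp). The exception was the adaptor Grb7, which starts 34.4 kb from Erbb2.

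Other receptor tyrosine kinases had a peak at 14 of 35 genes, and at 13 of the 30 with an island. Their widest peaks were at Axl (10773 bp), Ddr1 (7016 bp), Pdgfrb (6884 bp) and Igf1r (5827 bp), and those without a peak included Alk, Csf1r, Ddr2, Fgfr4, Flt3 and Flt4. The median width of the 14 was 4450 bp. The 3 ErbB receptors with a peak had 976 bp (Egfr), 2069 bp (Erbb3) and 3474 bp (Erbb2). Of 28 other growth factor genes, 15 had a peak, with a median of 4133 bp and the widest at Pdgfa (6827 bp), Csf1 (6540 bp), Vegfa (6531 bp) and Pdgfb (6246 bp). Angpt2, Fgf1, Fgf10, Fgf18, Fgf7 and Fgf9 were among those without one. All 15 growth factor genes with a peak were among the 23 with an island. Over all protein-coding genes the share with a peak was 49.4%, and over those with an island it was 70.2%. The lists were chosen with earlier results of these data known, and the counts were not tested against one another.

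**Figure D5:**
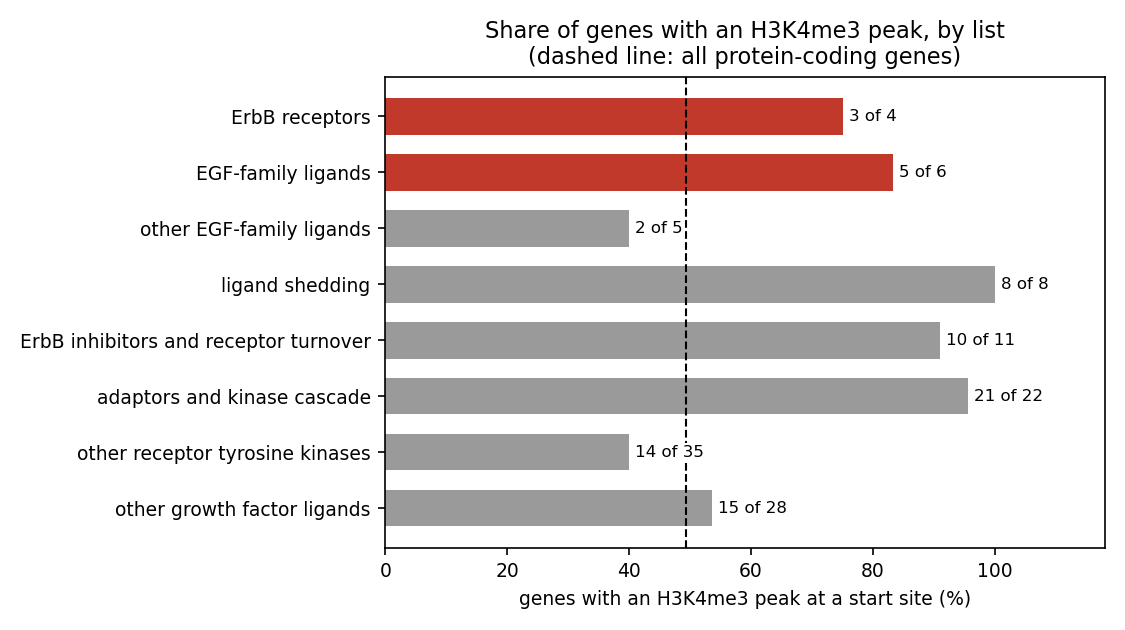
Share of the genes of each list with an H3K4me3 peak at a start site (%), with the number of genes beside each bar, ErbB receptors and EGF-family ligands in red, and a dashed line at 49.4% for all protein-coding genes. Shedding, turnover and cascade genes lie at 90.9% or above, and other receptor tyrosine kinases and other EGF-family ligands lie at 40%. Over all genes with a CpG island the share was 70.2%, which is not drawn.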

How the data were processed

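H3K4me3 ChIP-seq of 3 C127 replicates was used, as grouped by the labels. According to the study's methods, the authors aligned reads to mm10 with bowtie2, discarded reads without a unique position, called peaks with MACS against the input at a q-value of 0.01, required overlap in every replicate and merged peaks within 250 bp. The deposited list has 3 columns (chromosome, start, end) and no score, so depth, height and replicate spread are unknown. The submitters' processing notes name Bowtie2, SAMtools and MACS2 without versions.

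Starts were converted to 1-based positions, and 4 of 13451 peaks on scaffolds were left out. TSSs came from GENCODE vM21 basic transcripts on GRCm38.p6. The start used was the most 5' one at the widest peak. CpG islands were joined 200-bp windows whose GC fraction reached 0.5 and whose observed over expected CpG reached 0.6, with repeats kept, so an island includes flanks on which a window still passes. Percentiles of width and reach are over protein-coding genes with a peak. Those of island length are over genes with an island at the start used, and those of width over island length over genes with both. Percentiles of CpG counts are over all protein-coding genes. The assignment and island steps were tested on simulated data. No test between groups was made. The named genes were the 10 members, genes sharing their peaks, all other EGF-family ligands and, from each other list, up to 4 with the widest peak and 6 in alphabetical order without one (all where 8 or fewer stood on a side). The members and lists were chosen with earlier results of these data known. Python 3.11.15, numpy 2.4.6, pandas 2.3.3 and matplotlib 3.10.9 were used.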

Additional observations from a re-analysis of the deposited data

How the results depend on the processing

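The list gives no height and no replicate, so strength, replicate agreement and depth were not examined, and a missing peak does not show that the mark was absent. No paired analysis was possible because the replicates were deposited as 1 consensus list, and for the same reason leaving out a replicate was not run. A stricter peak threshold was replaced by a width of at least 1000 bp.

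The number of genes with a peak was 8 when a peak had to overlap the start, could lie within 1000 bp of it, when all GENCODE transcripts were used and with starts of coding transcripts only. It was 7 with 1 TSS per gene, which removed Egf, and 7 with peaks of at least 1000 bp, which removed Egfr. With 1 TSS per gene the median width became 2609 bp and the number of other EGF-family ligands with a peak became 1, by construction, since the internal starts of Egf and Nrg1 were left out. Of 41 alternatives of the counts and medians, the other 39 stayed within 1.5 times the count or at the same median. Merging peaks within 1000 bp changed none of the 8 widths, and the stricter island definition left 8 genes with an island. The share of all genes with a peak lay between 47.6% and 50.2%.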

Other observations

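Peaks away from the starts of the genes they lay in were few. Nrg1 held 3 such peaks, of 749 bp (chr8:31993484-31994232), 1048 bp (chr8:32286552-32287599) and 1349 bp (chr8:32292449-32293797), all at no annotated start. In the ligand cluster a peak of 731 bp (chr5:91156842-91157572) lay 8.4 kb past the end of Areg, with no CpG island in it. The ends of Erbb2 and Erbb3 were touched by peaks of their neighbours. The peak of Mien1 and Gm12352 (1664 bp) reached 187 bp into the 3' end of Erbb2, and that of Pa2g4 (5233 bp), which encodes a protein that binds Erbb3, reached 557 bp into the 3' end of Erbb3.

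The surroundings of the genes differed in the density of peaks. Within 100 kb of the start used, Erbb3 had 8 peaks, Erbb2 had 6 and Hbegf had 5, own peaks included, against a median of 2 over all genes. Areg and Ereg had 3 each. Egfr, Egf and Btc had their own peak alone, and Erbb4 and Tgfa had none. All 4 coding genes that start within 50 kb of Erbb3 had a peak (Zc3h10, Rpl41, Pa2g4 and Rps26). The widths of Zc3h10 and Rpl41 were both 3329 bp, so these genes may share a peak. Of 5 such genes near Erbb2, 2 had a peak (Pgap3 and Mien1, but not Tcap, Pnmt or Grb7). Near Hbegf 1 of 2 had one (Ankhd1, but not Slc4a9), Epgn, the single neighbour of Ereg, had none, and the other genes had no coding neighbour that close. Over all protein-coding genes the share with a peak was 49.4%. These neighbours were named after their values were seen.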
